A study of Mus musculus with 24 samples.

Results

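The aldo-keto reductases (Akr) and aldehyde dehydrogenases (Aldh) were followed in Ku70-deficient mouse cells after potassium bromate (KBrO3), which oxidizes DNA bases, bisphenol A (BPA), a plastics monomer with weak estrogen activity, or both. Members were the array probes whose gene name began with Akr or Aldh and a digit, leaving out Aldh18a1, whose product makes pyrroline-5-carboxylate in proline synthesis. They made up 34 of 27962 gene names on the array, 15 Akr and 19 Aldh, and were read by 48 of its 41174 probes. The array names Akr1a1 by its older symbol, Akr1a4, and lists Akr1b10 under a clone name, so that Akr1b10 is not among the members.

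All cells were immortalized mouse embryonic fibroblasts (MEFs) of genotype Ku70-/-, in which Ku70 (Xrcc6), a protein of nonhomologous end joining, is deleted; the untreated controls carry the same deletion. KBrO3-only cells received 20 mM KBrO3 for 1 hr and recovered in fresh medium for 3 or 23 hr, which gives the 4 and 24 hr groups. Co-exposed cells (KBrO3 + BPA) received 150 µM BPA for 1 hr before the same KBrO3 exposure, during it and throughout recovery, and BPA-only cells received 150 µM BPA. The labels give the BPA-only exposure as 4 or 24 hr, whereas the methods describe one that began 1 hr before the parallel KBrO3 treatment and so lasted 1 hr longer; the groups are named 4 and 24 hr here. Each group had 3 arrays, and the methods describe 3 biological replicates for each condition. The KBrO3-only and co-exposed cells were run with one control group (15 arrays, set 1), and the BPA-only cells with another (9 arrays, set 2). The set 1 controls are labelled 4 hr and the set 2 controls carry no time, so each 24 hr group was compared with controls that are not labelled 24 hr.

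Aldo-keto reductases use NADPH to reduce aldehydes and ketones to alcohols, including glucose, lipid aldehydes and steroid hormones. Aldehyde dehydrogenases use NAD(P)+ to oxidize aldehydes to carboxylic acids, and between them the members act on retinaldehyde, acetaldehyde, fatty aldehydes, formyltetrahydrofolate and the semialdehydes formed when amino acids are broken down. Several genes of both families are textbook targets of NRF2, the transcription factor of the antioxidant response, and both families are known for removing the reactive aldehydes that lipid peroxidation leaves behind.

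Values are log2 signals relative to the 75th percentile of each array, so that a level is comparable between groups for 1 probe but not between probes. Within a set, only probes well above background on all 3 arrays of at least 1 group entered the test, which held for 35 member probes (29 genes) of 27310 probes in set 1 and 44 member probes (33 genes) of 31810 in set 2. A change was called when limma's two-sided test gave a Bonferroni-adjusted p below 0.01 over all tested probes and the difference exceeded 1.5-fold, and the adjusted p printed beside a value is that of Benjamini and Hochberg. Differences are given as log2 treated minus control ± SE, with n = 3 arrays in each group. Replicate arrays differed more in set 2, where the median residual SD over probes was 0.318 log2 units, than in set 1, where it was 0.106. The number of arrays limits the precision of each value. Fibroblast markers identified the cells, with 10 of 10 well above background on all control arrays of both sets. The hepatocyte markers Alb, Ttr and Apoa1 were at background on every array of set 1. In set 2, where dimmer signals counted as well above background, Alb and Apoa1 were each detected on 2 of 3 control arrays, Apoa1 on all 3 arrays after BPA at 24 hr, and Ttr on none. On all control arrays of sets 1 and 2, 2 and 4 of the 5 epithelial markers and 2 and 3 of the 4 endothelial markers were well above background. Their summed levels in set 1 ranged from -2.75 to -2.31 (epithelial) and -3.23 to -2.79 (endothelial) in controls, and from -3.42 to -1.97 and -3.52 to -2.21 over the treated groups. In set 2 they ranged from -2.76 to -0.88 and -4.07 to -2.89 in controls, and from -2.99 to -2.36 and -3.64 to -3.05 after BPA. The summed fibroblast marker level in set 1 ranged from 10.41 to 10.51 over the control arrays, from 9 to 9.14 in KBrO3-only cells at 24 hr and from 8.61 to 8.8 in co-exposed cells at 24 hr, where Thy1 was at background on all 3 arrays. Of the 5 leukocyte markers, Ptprc was at background on every array, and their summed level in set 1 ranged from -2.05 to -1.74 in controls, -0.44 to -0.31 at 4 hr and -1.42 to -1.26 at 24 hr in KBrO3-only cells, and -0.79 to -0.77 and -1.01 to -0.84 at these times after co-exposure. The 4 skeletal muscle markers in set 1 summed to -1.12 to -0.79 in controls, -2.17 to -1.95 in KBrO3-only and -3.93 to -2.56 in co-exposed cells at 24 hr. In set 2 they summed to -0.86 to -0.58 in controls, -0.53 to -0.22 after BPA at 4 hr and -1.77 to -1.34 at 24 hr. The part of these shifts in the results was not tested, and in bulk RNA fewer cells of a type and less RNA per cell cannot be told apart.

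Each member gene is read through short DNA probes of 60 bases, and a few are shown because genes with more than 1 probe did not always give 1 answer. The probe of Akr1c18, aligned by the array design to chr13:4019629-4021004 (mouse build mm7, minus strand), covers more genome than its own length, so in that alignment it crosses an intron. The second Aldh1l2 probe, at chr10:83032105-83034004 (minus strand), does so too. The brightest Aldh1a3 probe, at chr7:62248866-62248925 (minus strand), holds an AATAAA hexamer, the usual polyadenylation signal, shown in capitals with bases 31 to 60 of the probe; the hexamer was found in 4 of 46 member probes searched. The other Aldh1a3 probe lies 18062 bases further upstream in the gene's direction, at chr7:62266988-62267047, and has no such hexamer.
Akr1c18, whole probe: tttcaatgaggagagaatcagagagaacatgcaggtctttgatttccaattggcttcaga
Aldh1l2, second probe, whole: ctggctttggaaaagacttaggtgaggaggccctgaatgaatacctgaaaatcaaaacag
Aldh1a3, brightest probe, bases 31 to 60: gttcagcaatgaaaaAATAAAgttggacac
Aldh1a3, other probe, bases 31 to 60: cgtaaactattagaaaaattttccagttcc
No pair of the 46 member probes compared shared a run of more than 12 identical bases.

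Promoter sequences from RefSeq (GRCm38.p6) were available for 26 of the 34 member genes, and 2 pairs stood out by likeness. Over an alignment of the 300-base windows, gaps left out, Akr1c12 and Akr1c13 were 95.9% identical and Aldh1a1 and Aldh1a7 were 83.8% identical. The pairs with the next longest shared runs were 71.2% to 74.9% identical by this measure. Aldh1a1 and Aldh1a7 are shown because both genes read below control at 24 hr, as described below. The 250 bases before each start are given 5′ to 3′, with the 65-base run that both share in capitals.
Aldh1a1, chr19:20601718-20601967, plus strand: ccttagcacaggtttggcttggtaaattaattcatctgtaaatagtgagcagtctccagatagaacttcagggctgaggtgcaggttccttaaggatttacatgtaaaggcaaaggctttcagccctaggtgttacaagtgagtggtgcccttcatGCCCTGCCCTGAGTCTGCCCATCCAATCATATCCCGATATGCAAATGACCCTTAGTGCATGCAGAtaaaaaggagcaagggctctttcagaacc
Aldh1a7, chr19:20727557-20727806, minus strand: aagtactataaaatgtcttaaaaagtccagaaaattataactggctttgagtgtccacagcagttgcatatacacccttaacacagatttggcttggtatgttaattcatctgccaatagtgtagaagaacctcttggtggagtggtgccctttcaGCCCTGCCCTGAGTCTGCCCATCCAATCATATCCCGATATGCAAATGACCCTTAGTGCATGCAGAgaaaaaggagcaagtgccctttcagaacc
The median longest shared run over the 376 pairs of windows was 8 bases. The core of the antioxidant response element, TGACNNNGC on either strand, was present in 3 of 28 member windows (Akr1c19, Aldh1a2 and Aldh9a1) and in 12.4% of all 32851 windows of that length. An AP-1 element, TGANTCA, was present in 1 of 28 member windows, that of another annotated Aldh1a1 start at chr19:20492333-20492632 and not the printed one, and in 7.81% of all windows, and the amino acid response element TTGCATCA in 0 of 28 member windows and 0.895% of all.

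Over the members as a group, changes after KBrO3 went both ways at both times. At 4 hr in KBrO3-only cells, 7 of 35 member probes were called against 28.8% of all probes, with 3 higher (14.7% of all probes) and 4 lower (14.1%). At 24 hr, 11 of 35 were called against 16.8%, with 3 higher (7.44%) and 8 lower (9.41%). In co-exposed cells the counts were 10 of 35 at 4 hr against 32.6%, with 4 higher (16.4%) and 6 lower (16.2%). At 24 hr 12 of 35 were called against 20.8%, with 6 higher (9.77%) and 6 lower (11.1%). At a Benjamini-Hochberg p below 0.05 and 1.5-fold that last count was 21 of 35, beside 39.4% of all probes. The median member difference lay between -0.10 and 0.18 in these 4 comparisons, where the median over all tested probes lay between -0.07 and 0.08. By the brightest probe of each gene, 14 of 29 tested genes were called at least once, beside 47.8% of all tested genes. Akr1c18 was called higher in all 4 comparisons, and Aldh3b1 and Aldh6a1 were called lower in all 4. The other 15 tested genes were not called in any of them. Set 1 controls share a slide with KBrO3-only cells at 4 hr through 1 array only, and with slide as a block 1 member probe (Akr1c18) kept its call in that comparison, so the within-slide difference is given beside each brightest-probe result there that was called or passed the Benjamini-Hochberg threshold, except for Aldh1b1, which was at background after KBrO3. No later or co-exposed group shares a slide with a control; with slide as a random block the counts were 8, 7 and 11 for KBrO3-only cells at 24 hr and co-exposed cells at 4 and 24 hr. The calls lost were those of Akr1e1, Aldh1a3 and Aldh1a7 in the first, of Akr1c14, Akr1e1 and Aldh6a1 in the second and of the brightest Akr1b3 probe in the third. Unless stated beside it, a call against control by the brightest probe was lost in at most 5 of 28 alternative settings.

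**Figure D1:**
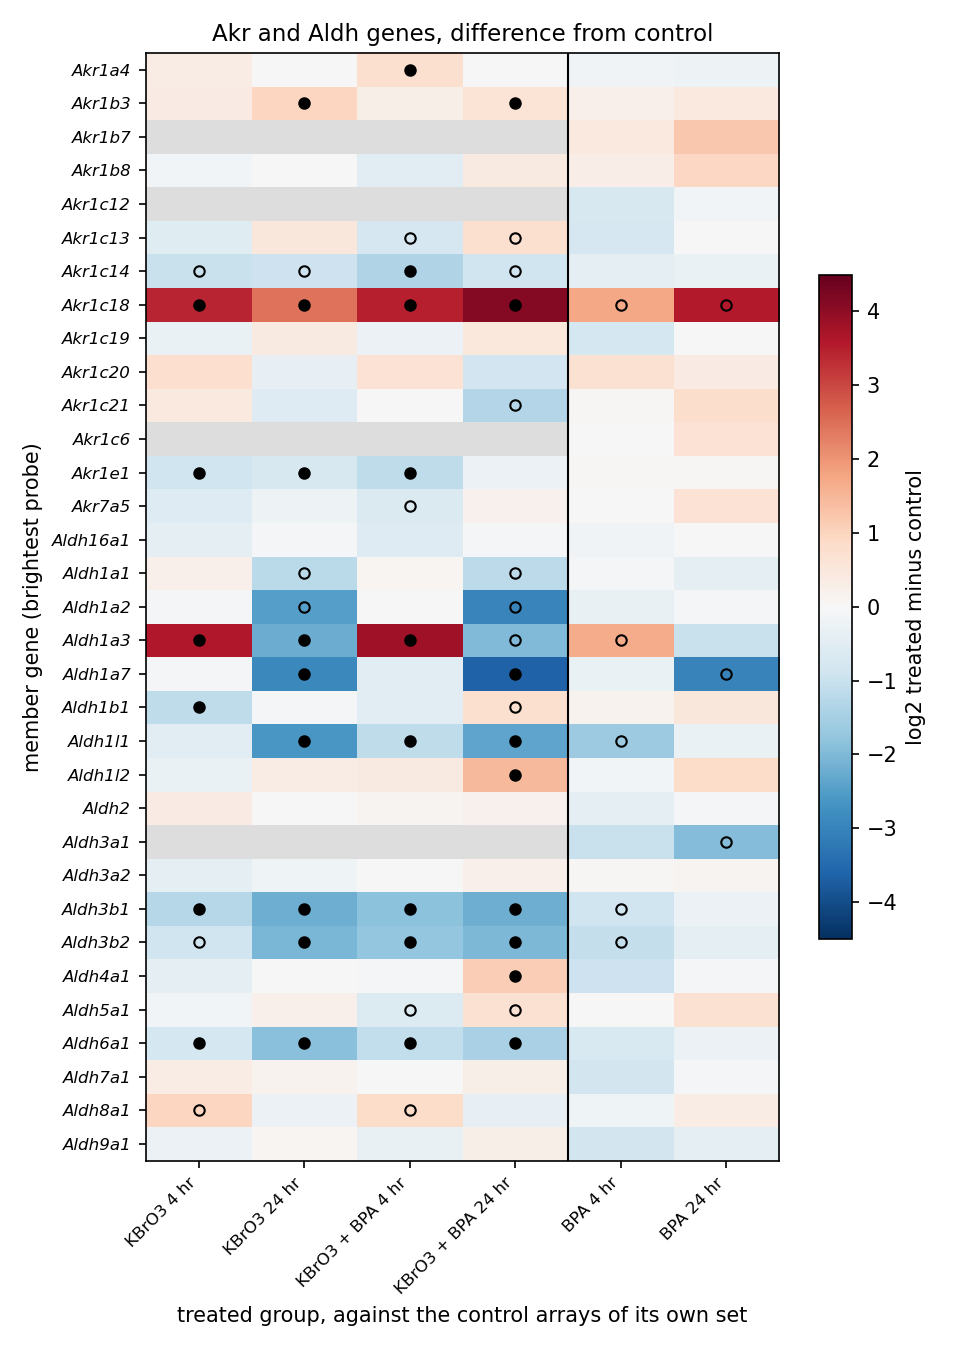
Difference from control in log2 units (color, blue lower and red higher) for the brightest probe of each member gene tested in at least 1 set, with 6 treated groups as columns. Filled circles mark called changes, open circles mark changes past a Benjamini-Hochberg p of 0.05 and 1.5-fold only, and grey cells were not tested; Akr1c18 is the only gene with a filled circle in a red cell in all 4 KBrO3 columns.

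The retinaldehyde dehydrogenases (Aldh1a), which make retinoic acid, included the member with the largest change between times. Aldh1a3 rose 12.1-fold after KBrO3 at 4 hr and lay below control at 24 hr, and Aldh1a7 was not called at 4 hr and was not well above background at 24 hr. The brightest Aldh1a3 probe read -2.64, -2.82 and -3.03 in the controls. It read 0.80, 0.78 and 0.74 in KBrO3-only cells at 4 hr and 0.99, 1.00 and 1.01 in co-exposed cells at 4 hr. At 24 hr it read -5.02, -5.07 and -5.11 after KBrO3 and -5.02, -4.21 and -5.24 after co-exposure. All treated arrays at 4 hr were above every control array and all at 24 hr were below. The 4 hr differences were 3.60 ± 0.20, adjusted p = 5.63e-09 for KBrO3 (12.1-fold; 3.80 within the shared slide) and 3.83 ± 0.20, adjusted p = 2.65e-09 for co-exposure (14.2-fold). With normexp background correction they were 2.33 and 2.55, and neither was called. At 24 hr they were -2.24 ± 0.20, adjusted p = 8.83e-07 (4.72-fold lower) and -1.99 ± 0.20, adjusted p = 2.1e-06 (3.98-fold lower); the second missed the Bonferroni threshold, and the first missed it under 17 of 28 alternative settings. The other Aldh1a3 probe was not well above background in the controls or at 24 hr, and its 4 hr bounds were at least 4.98-fold higher after KBrO3 and, with BPA as well, at least 7.46-fold, so it carries the rise but cannot show a fall below control. Bounds of this kind set the brighter group against a value for each array of the other group. That value was the dimmest signal well above background on the array, or the probe's own value where that was higher.

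Aldh1a7, a close relative of Aldh1a1, read -3.90, -3.67 and -3.80 in controls and -3.69, -3.88 and -3.94 in KBrO3-only cells at 4 hr, which overlap. Co-exposed cells at 4 hr read -4.24, -4.40 and -4.10, below every control array but without a call (-0.46 ± 0.23, adjusted p = 0.0897). At 24 hr the 6 KBrO3-treated arrays all read at background (-7.50 to -5.96), all below every control array. That amounts to at least 3.5-fold lower after KBrO3 (adjusted p = 3.47e-07, limma) and, for co-exposed cells, at least 2.77-fold lower (adjusted p = 3.46e-08, limma). The KBrO3-only call was lost in 7 of 27 alternative settings. Aldh1a1, which oxidizes retinaldehyde in the cytosol, read -3.28, -3.31 and -2.89 in controls, -3.61, -4.91 and -4.62 after KBrO3 at 24 hr and -4.82, -3.77 and -4.37 after co-exposure at 24 hr. The groups did not overlap, with differences of -1.23 ± 0.35, adjusted p = 0.00796 and -1.16 ± 0.35, adjusted p = 0.0101, but neither was called. Aldh1a2, the main retinoic acid enzyme of the early embryo, read -4.30, -4.05 and -3.96 in controls and -7.57 to -5.56 over both 24 hr groups, where 1 of 6 arrays was well above background. That array was of KBrO3-only cells, so the size of their difference was not measured. Co-exposed cells were at least 2.23-fold lower (adjusted p = 2e-05, limma), and neither group was called. Aldh8a1, first described as a retinal dehydrogenase, read -3.71, -3.77 and -3.25 in controls and -2.74, -2.59 and -2.49 in KBrO3-only cells at 4 hr. Its 4 hr differences of 0.97 ± 0.20, adjusted p = 0.000697 (0.65 within the shared slide) and 0.81 ± 0.20, adjusted p = 0.00226 were not called. At 24 hr each of the 4 Aldh1a genes had both treated groups below the control arrays by its brightest probe. Calls were those of Aldh1a3 and Aldh1a7 in KBrO3-only cells, 2 of the 4 beside 9.41% of all probes called lower, and of Aldh1a7 in co-exposed cells, 1 of the 4 beside 11.1%.

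**Figure D2:**
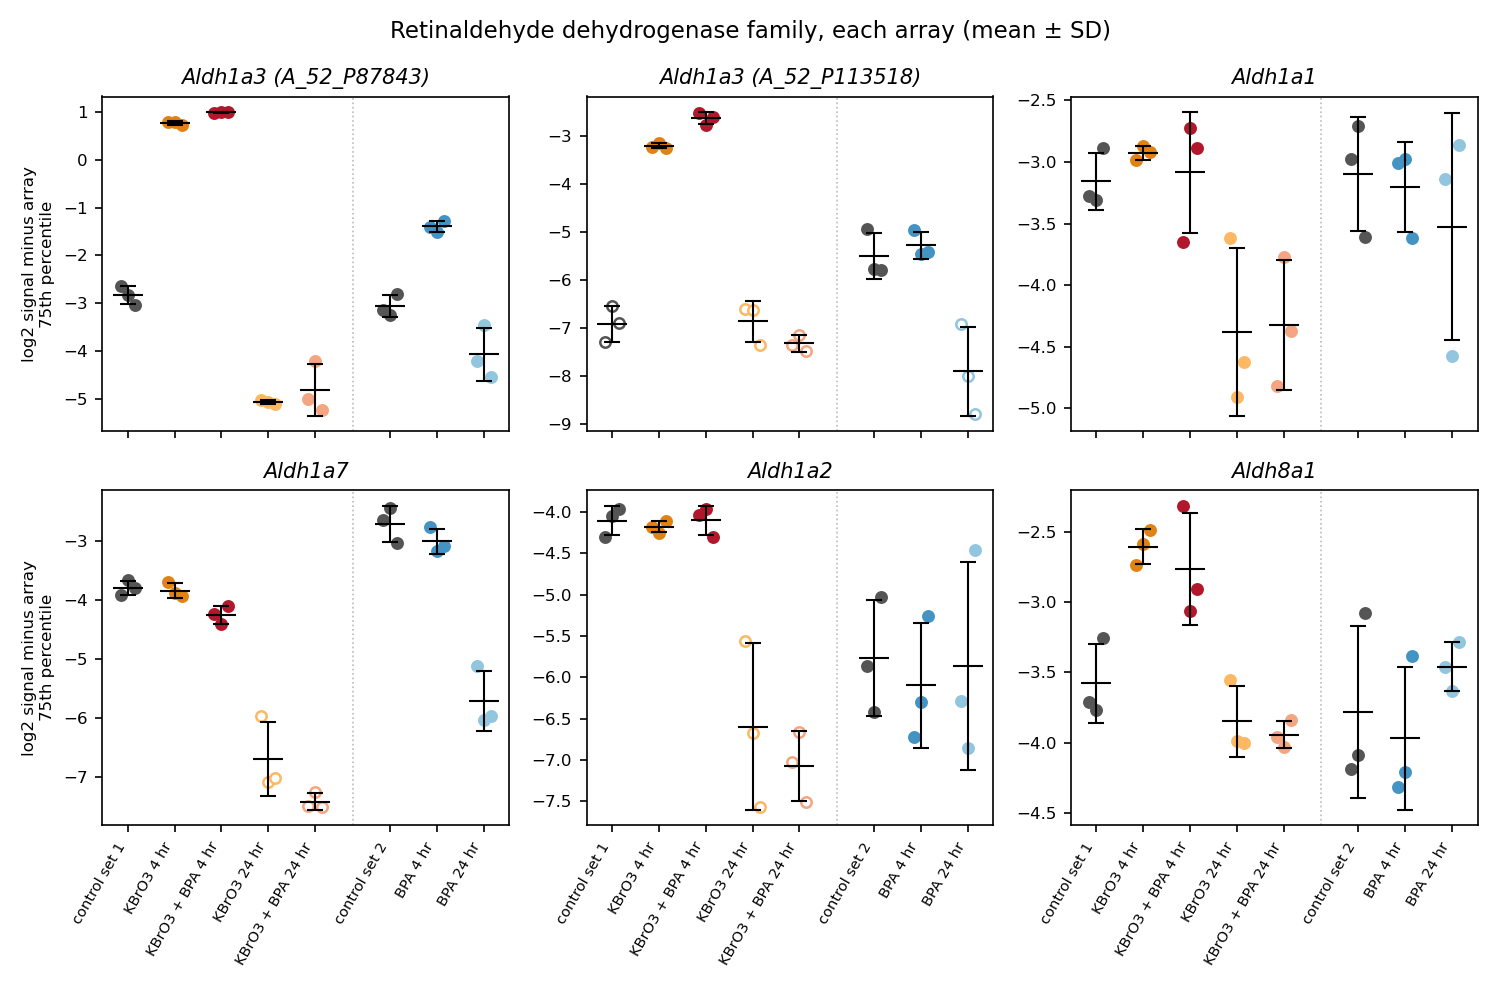
Log2 signal minus the array's 75th percentile (vertical axes, each panel to its own scale) for each of 3 arrays in 8 groups, with set 2 to the right of the dotted line; bars are means ± SD. Open circles mark groups in which fewer than 3 arrays were well above background, and both Aldh1a3 panels peak in the 4 hr KBrO3 groups while Aldh1a7 drops to open circles at 24 hr.

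The Akr1c cluster on chromosome 13 encodes hydroxysteroid dehydrogenases, and 8 of its genes are on the array. Akr1c18, the 20α-hydroxysteroid dehydrogenase that inactivates progesterone, was the only member gene called higher at both times in both KBrO3-only and co-exposed cells, and these calls held under every alternative setting tried, with differences from 1.88 to 3.501 under normexp background correction. It read -1.56, -1.59 and -1.66 in controls. After KBrO3 it read 1.85, 1.81 and 1.78 at 4 hr and 0.72, 0.92 and 0.90 at 24 hr, and after co-exposure 1.85, 1.86 and 1.95 at 4 hr and 2.59, 2.49 and 2.52 at 24 hr. Every treated array was above every control array, and the 4 treated groups were apart from each other except for the overlapping 4 hr groups. The rise was 10.7-fold at 4 hr after KBrO3 (3.42 ± 0.06, adjusted p = 2.17e-13; 3.47 within the shared slide) and 5.46-fold at 24 hr (2.45 ± 0.06, adjusted p = 7.75e-12). With co-exposure it was 11.2-fold at 4 hr (3.49 ± 0.06, adjusted p = 1.39e-13) and 17.6-fold at 24 hr (4.14 ± 0.06, adjusted p = 5.91e-14).

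Its neighbor Akr1c14, a 3α-hydroxysteroid dehydrogenase, went the other way. It read 0.09, -0.02 and -0.18 in controls, -1.04, -1.06 and -1.01 after KBrO3 at 4 hr and -1.23, -1.57 and -1.38 after co-exposure at 4 hr, and -1.07 to -0.70 over the 24 hr groups. All 12 treated arrays were below the control arrays, and the co-exposed difference at 4 hr was called (-1.36 ± 0.11, adjusted p = 1.9e-07, 2.56-fold lower), a call lost in 6 of 28 alternative settings. Those of KBrO3-only cells, -1.002 ± 0.11 at 4 hr (-0.86 within the shared slide) and -0.93 ± 0.11 at 24 hr, and of co-exposed cells at 24 hr, -0.89 ± 0.11, missed the Bonferroni threshold, with adjusted p between 3.83e-06 and 1.37e-05. Akr1c13 and Akr1c19 had lower values at 4 hr and higher ones at 24 hr without a call, from -0.74 ± 0.19 to 0.71 ± 0.19 after co-exposure for Akr1c13 and from -0.26 ± 0.08 to 0.46 ± 0.08 for Akr1c19. Akr1c20 and Akr1c21 were near background and not called. Akr1c12 and Akr1c6 were not tested in set 1 because no group had all 3 arrays well above background. Akr1c18 was therefore the 1 gene of the cluster called higher.

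Among the aldose reductases (Akr1b), which reduce glucose and lipid aldehydes, Akr1b3 rose at 24 hr and Akr1b8 stayed within 1.5-fold of control. Akr1b3, the aldose reductase of the polyol pathway, read 2.96, 2.97 and 2.98 in controls, 3.35, 3.32 and 3.32 after KBrO3 at 4 hr and 3.93, 3.89 and 3.94 at 24 hr. After co-exposure it read 3.17, 3.22 and 3.29 at 4 hr and 3.63, 3.62 and 3.55 at 24 hr, so that every treated array was above every control array. The change was called at 24 hr in KBrO3-only cells (0.95 ± 0.04, adjusted p = 1.22e-09, 1.93-fold) and in co-exposed cells (0.63 ± 0.04, adjusted p = 3.45e-08, 1.54-fold). At 4 hr it was under 1.5-fold in both (0.36 ± 0.04 and 0.26 ± 0.04). A further Akr1b3 probe gave 1.26 ± 0.05 and 0.86 ± 0.05 at 24 hr, also called. A probe that the array assigns to Akr1b3 but places on chromosome 1, where the others lie on chromosome 6, was at background on every array and is left aside. Akr1b8, which reduces lipid-derived aldehydes, read 4.56, 4.58 and 4.62 in controls and 4.46, 4.47 and 4.45 after KBrO3 at 4 hr. Its differences from control, -0.13 ± 0.04 and 0.03 ± 0.04 after KBrO3 and -0.52 ± 0.04 and 0.41 ± 0.04 after co-exposure, were all under 1.5-fold. Akr1b7 was not well above background in all arrays of any set 1 group, with 1 of 3 arrays detected after KBrO3 and 2 of 3 after co-exposure at 24 hr and none in controls.

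Of the remaining reductases, Akr1a4 rose after co-exposure at 4 hr, and Akr1e1 fell at 4 hr in both groups. Akr1a4, the general aldehyde reductase, read 4.75, 4.75 and 4.86 in controls, 5.10, 5.12 and 5.12 after KBrO3 at 4 hr and 5.51, 5.51 and 5.47 after co-exposure at 4 hr. The co-exposed rise was called (0.71 ± 0.04, adjusted p = 1.42e-08, 1.64-fold; lost in 5 of 28 alternative settings) and the KBrO3-only difference, 0.33 ± 0.04, was under 1.5-fold. At 24 hr both groups (4.74 to 4.87) overlapped the controls. Akr1e1, the 1,5-anhydrofructose reductase, read 0.59, 0.63 and 0.47 in controls, -0.30, -0.38 and -0.31 after KBrO3 at 4 hr and -0.60, -0.65 and -0.51 after co-exposure at 4 hr. It was called lower at 4 hr in both groups (-0.89 ± 0.07, adjusted p = 8.13e-08, -0.80 within the shared slide, and -1.15 ± 0.07, adjusted p = 6.12e-09) and at 24 hr after KBrO3 (-0.72 ± 0.07, adjusted p = 1.09e-06), a call that 19 of 28 alternative settings did not keep. After co-exposure at 24 hr its level of 0.18, 0.38 and 0.32 was close to control (-0.27 ± 0.07). Akr7a5, an aflatoxin aldehyde reductase, gave -0.58 ± 0.12 and -0.66 ± 0.12 at 4 hr without a call. Akr1d1 was at background on all 24 arrays.

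The 2 formyltetrahydrofolate dehydrogenases went different ways. Aldh1l1, the cytosolic enzyme, fell at 24 hr in both groups and already at 4 hr in co-exposed cells, and Aldh1l2, its mitochondrial counterpart, rose in co-exposed cells at 24 hr. Aldh1l1 read -0.43, -0.43 and -0.29 in controls, -0.89, -0.95 and -0.86 after KBrO3 at 4 hr and -2.96, -3.05 and -3.04 at 24 hr. With co-exposure it read -1.55, -1.43 and -1.60 and -2.65, -2.79 and -2.84 at these times, and no treated array overlapped the controls. The KBrO3 difference was -0.52 ± 0.06, adjusted p = 1.11e-05 at 4 hr, which was not called, and -2.63 ± 0.06, adjusted p = 1.11e-11 at 24 hr (6.18-fold lower). Co-exposure gave -1.14 ± 0.06, adjusted p = 5.03e-09 at 4 hr and -2.37 ± 0.06, adjusted p = 1.34e-11 at 24 hr (5.18-fold lower). The brightest Aldh1l2 probe read 0.06, 0.04 and -0.01 in controls, 0.35, 0.41 and 0.31 after KBrO3 and 1.36, 1.32 and 1.76 after co-exposure at 24 hr. The co-exposed rise was 1.45 ± 0.09, adjusted p = 3.32e-08 (2.74-fold), and the intron-crossing probe shown above gave 2.07 ± 0.09, adjusted p = 9.75e-10 (4.19-fold). After KBrO3 alone at 24 hr these probes gave 0.33 ± 0.09 and 0.65 ± 0.09, and neither was called. At 4 hr after KBrO3 the probes differed in sign, with -0.28 ± 0.09 and 0.20 ± 0.09.

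**Figure D3:**
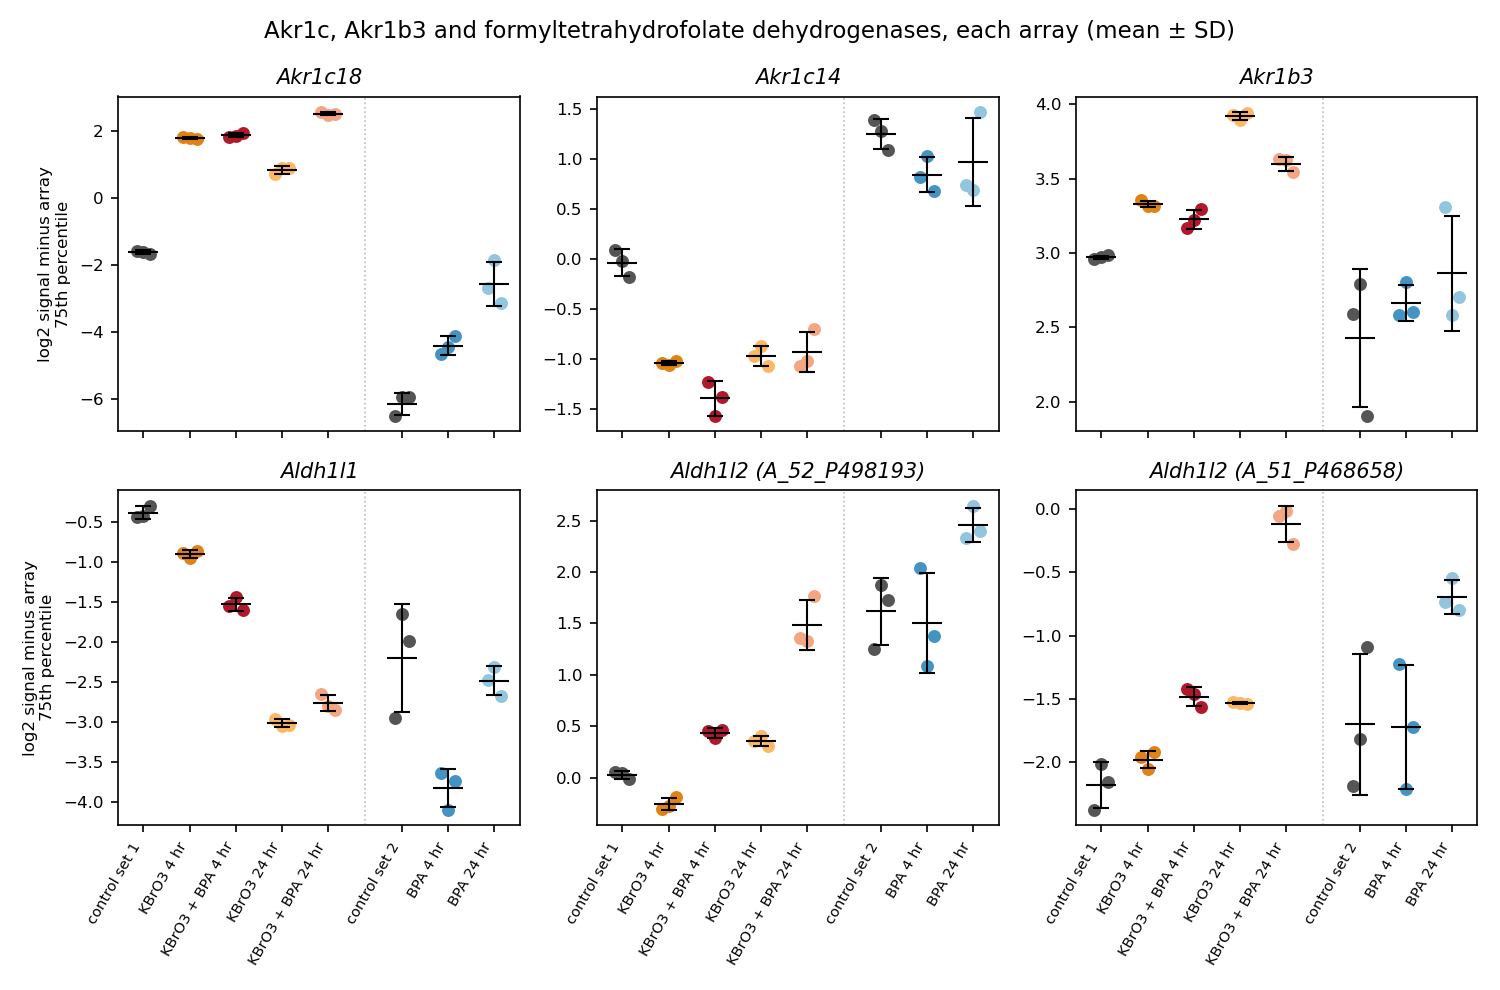
Log2 signal minus the array's 75th percentile (vertical axes, each panel to its own scale) for each of 3 arrays in 8 groups, with set 2 to the right of the dotted line; bars are means ± SD. Akr1c18 lies above its control in every treated group, Aldh1l1 lies lowest at 24 hr in set 1, and both Aldh1l2 probes are highest in set 1 in co-exposed cells at 24 hr.

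The Aldh3b genes, whose products oxidize fatty aldehydes at membranes, fell in all 4 comparisons for Aldh3b1 and in 3 of the 4 for Aldh3b2. Aldh3b1 read 2.69, 2.68 and 2.67 in controls and 1.39, 1.40 and 1.44 after KBrO3 at 4 hr, 0.92, 0.79 and 0.82 after co-exposure at 4 hr, and 0.34 to 0.59 over both 24 hr groups. Its differences were -1.27 ± 0.06, adjusted p = 1.08e-09 at 4 hr after KBrO3 (-1.26 within the shared slide), -1.84 ± 0.06, adjusted p = 3.25e-11 for co-exposed cells then, and -2.19 ± 0.06 and -2.19 ± 0.06 at 24 hr (4.57- and 4.56-fold lower). Aldh3b2 read -0.90, -1.03 and -0.85 in controls, -1.80, -1.84 and -1.85 after KBrO3 and -2.65, -2.65 and -2.68 after co-exposure at 4 hr. It was called lower in co-exposed cells at 4 hr (-1.73 ± 0.09, adjusted p = 3.7e-09) and in both groups at 24 hr (-2.07 ± 0.09 and -2.004 ± 0.09), while its 4 hr value after KBrO3, -0.90 ± 0.09, adjusted p = 2.21e-06 (-0.97 within the shared slide), missed the Bonferroni threshold. Of the Aldh3a genes, Aldh3a2, the fatty aldehyde dehydrogenase of the endoplasmic reticulum, stayed within 1.5-fold of control in all 4 groups. Aldh3a1 was at background on every set 1 array.

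Of the mitochondrial enzymes of amino acid breakdown, Aldh6a1 fell and Aldh4a1 rose late in co-exposed cells. Aldh6a1, the methylmalonate-semialdehyde dehydrogenase of valine catabolism, read 1.21, 1.31 and 1.17 in controls and 0.39, 0.42 and 0.45 after KBrO3 at 4 hr, and -0.64, -0.59 and -0.71 at 24 hr. After co-exposure it read 0.12, 0.01 and 0.23 at 4 hr and -0.32, -0.24 and -0.15 at 24 hr, with no treated array reaching the controls. The differences were -0.81 ± 0.06, adjusted p = 1.62e-07 and -1.88 ± 0.06, adjusted p = 1.73e-10 after KBrO3 and -1.11 ± 0.06 and -1.46 ± 0.06 after co-exposure, all called. The first was -0.74 within the shared slide, and its call was lost in 11 of 28 alternative settings. Aldh4a1, which completes the conversion of proline to glutamate, read -0.26, -0.24 and -0.32 in controls and 0.78, 0.85 and 0.85 after co-exposure at 24 hr, a rise of 2.14-fold (1.10 ± 0.04, adjusted p = 3.23e-10). KBrO3-only cells at 24 hr read -0.24, -0.26 and -0.36, which overlaps the controls, and at 4 hr -0.71, -0.71 and -0.76, a difference of -0.46 ± 0.04 that was under 1.5-fold. Aldh5a1, the succinate-semialdehyde dehydrogenase, gave -0.61 ± 0.07, adjusted p = 5.44e-06 at 4 hr and 0.69 ± 0.07, adjusted p = 2.49e-06 at 24 hr after co-exposure, neither called. Aldh7a1 and Aldh9a1 were not called by any probe, although a second Aldh9a1 probe gave 0.90 ± 0.11 and 0.84 ± 0.11 at 24 hr where the brightest gave 0.09 ± 0.08 and 0.25 ± 0.08.

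Aldh2, the mitochondrial acetaldehyde dehydrogenase, and Aldh1b1, its close relative, had no call at 24 hr by their brightest probes. Aldh2 read 3.15, 3.08 and 3.28 in controls, 3.57, 3.52 and 3.51 after KBrO3 at 4 hr and 3.16 to 3.43 over the 24 hr groups, with all 4 differences from control under 1.5-fold (0.01 ± 0.06 at 24 hr after KBrO3). A second probe, placed beyond the first in the direction of transcription at chr5:120800409-120800468, read -1.58, -1.58 and -1.55 in controls, -2.72, -2.73 and -2.58 after KBrO3 and -2.34, -2.33 and -2.49 after co-exposure at 24 hr, and was called lower (-1.11 ± 0.05, adjusted p = 2.61e-09 and -0.82 ± 0.05, adjusted p = 2.75e-08). The Aldh2 locus therefore gave 2 answers, and which transcript the second probe reads was not tested. Aldh1b1 read -4.02, -4.03 and -3.89 in controls and -5.22, -4.90 and -5.28 after KBrO3 at 4 hr, where no array was well above background, so that it was at least 2.13-fold lower (adjusted p = 2.72e-07, limma). That call was lost in 12 of 27 alternative settings. At 24 hr it read -4.03, -4.00 and -4.12 after KBrO3 and -3.24, -3.42 and -3.15 after co-exposure, with differences of -0.07 ± 0.10 and 0.71 ± 0.10. Aldh16a1 had differences under 1.5-fold by both probes in all 4 comparisons. Across the 6 genes with more than 1 tested probe in set 1, the probes differed in sign in 9 of 24 gene and comparison pairs.

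**Figure D4:**
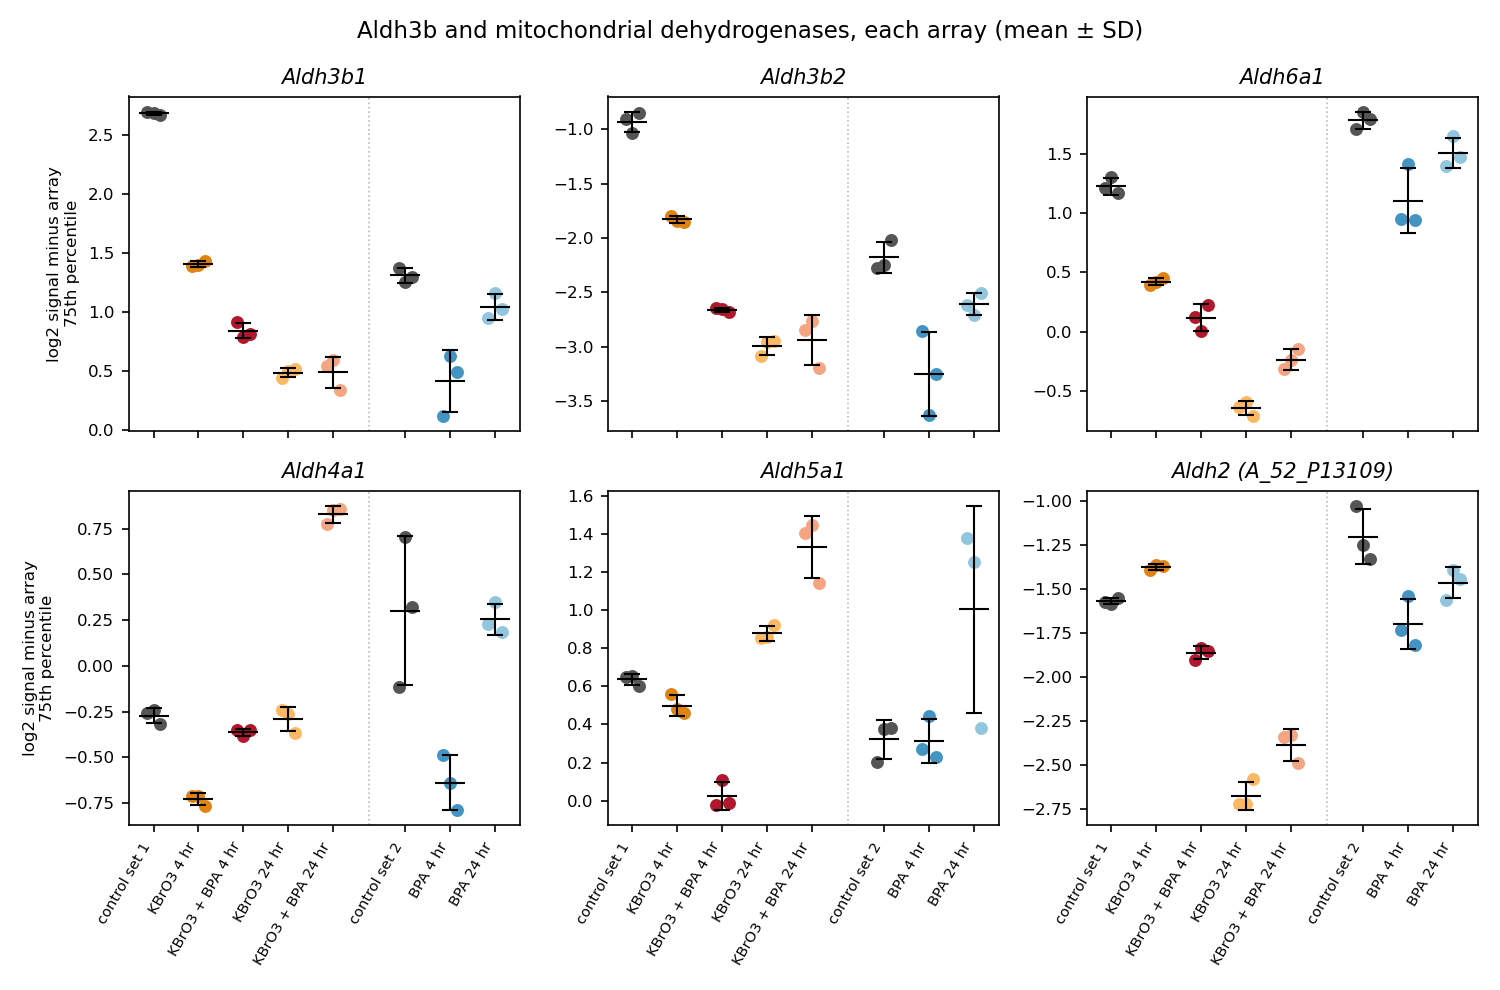
Log2 signal minus the array's 75th percentile (vertical axes, each panel to its own scale) for each of 3 arrays in 8 groups, with set 2 to the right of the dotted line; bars are means ± SD. Aldh3b1, Aldh3b2 and Aldh6a1 lie below their set 1 controls in every KBrO3 group, and Aldh4a1 and Aldh5a1 are highest in set 1 in co-exposed cells at 24 hr.

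BPA alone was compared with its own controls in set 2. No member probe was called by limma at 4 hr, where 0.066% of all probes were called, or at 24 hr, where 0.0189% were. At an unadjusted p below 0.05, 13 of 44 member probes passed at 4 hr and 11 at 24 hr, beside 18.8% and 18.3% of all probes. At a Benjamini-Hochberg p below 0.05 and 1.5-fold, 5 of 44 member probes passed at 4 hr (4.24% of all probes) and 4 at 24 hr (3.4%). Akr1c18 passed at both times. It read -6.51, -5.94 and -5.95 in controls, -4.66, -4.45 and -4.11 after BPA at 4 hr and -2.69, -1.84 and -3.12 at 24 hr, with every treated array above the controls and differences of 1.73 ± 0.34, adjusted p = 0.024 and 3.58 ± 0.34, adjusted p = 0.00261 (3.31- and 12-fold). Within slides the difference was 2.13 at 4 hr, and 3.25 and 4.11 on the 2 slides shared at 24 hr. The brightest Aldh1a3 probe read -3.14, -3.24 and -2.80 in controls and -1.40, -1.51 and -1.27 after BPA at 4 hr (1.67 ± 0.28, adjusted p = 0.0132, 3.18-fold higher), and -4.21, -3.46 and -4.54 at 24 hr (-1.005 ± 0.28, adjusted p = 0.094). Its other probe gave 0.22 ± 0.44 at 4 hr. At 24 hr that probe read -6.92, -8.01 and -8.79 against -4.93, -5.76 and -5.78 in controls and passed the Benjamini-Hochberg threshold as lower (adjusted p = 0.022, limma), but 1 of 3 arrays was well above background, so the size of its drop was not measured.

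Aldh1a7 was lower after BPA at 24 hr past the Benjamini-Hochberg threshold, from -2.64, -2.43 and -3.03 in controls to -5.12, -6.03 and -5.97 (-3.00 ± 0.29, adjusted p = 0.00261, 8.01-fold lower), and read -2.76, -3.16 and -3.08 at 4 hr. Aldh3a1, a dioxin-responsive aldehyde dehydrogenase, read -5.11, -4.25 and -5.48 in controls and -7.01, -7.34 and -6.33 at 24 hr (-1.95 ± 0.40, adjusted p = 0.0335), when 2 of 3 arrays were well above background. At 4 hr Aldh1l1, Aldh3b1 and Aldh3b2 passed that threshold as lower. Aldh1l1 read -2.95, -1.65 and -1.99 in controls and -3.64, -4.10 and -3.73 at 4 hr (-1.63 ± 0.32, adjusted p = 0.0254), and -0.74 was its difference within the shared slide. Aldh3b1 read 1.38, 1.25 and 1.30 and 0.12, 0.63 and 0.49 (-0.89 ± 0.19, adjusted p = 0.0344), and Aldh3b2 -2.27, -2.25 and -2.02 and -2.86, -3.63 and -3.25 (-1.07 ± 0.22, adjusted p = 0.0314). At 24 hr these 3 genes gave -0.29 ± 0.32, -0.26 ± 0.19 and -0.43 ± 0.22, and none passed. Akr1b7, which was well above background in all 9 arrays of set 2, read -5.70, -5.76 and -5.34 in controls and -3.72, -4.33 and -5.07 at 24 hr (1.23 ± 0.32, adjusted p = 0.0746), and Akr1b8 gave 0.92 ± 0.25, adjusted p = 0.0912. Aldh1a1 (-0.43 ± 0.44), Aldh1a2 (-0.10 ± 0.64), Aldh2 (-0.04 ± 0.28), Akr1a4 (-0.23 ± 0.21), Akr1b3 (0.44 ± 0.28) and Akr1e1 (0.06 ± 0.24) did not pass at 24 hr. The sets were extracted with different software versions, and the set 1 and set 2 values stand side by side without a test between them.

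Co-exposed and KBrO3-only cells were compared directly to show what BPA added. These groups share no slide at 4 hr, so BPA and slide cannot be told apart at that time. At 4 hr no member probe was called by limma (4.99% of all probes were), 22 of 35 had an unadjusted p below 0.05 (62.3% of all probes), and 4 passed the Benjamini-Hochberg threshold with 1.5-fold (20.1% of all probes). Those were Aldh1l1 (-0.63 ± 0.06, adjusted p = 8.1e-06) and Aldh3b2 (-0.83 ± 0.09, adjusted p = 1.75e-05), lower with BPA, and Aldh1l2 (0.69 ± 0.09, adjusted p = 6.77e-05) and Aldh1b1 (0.63 ± 0.10, adjusted p = 0.000177, at least 1.48-fold since KBrO3-only arrays were at background), higher with BPA. At 24 hr 4 of 35 probes, of 3 genes, were called against 5.8% of all probes, and all 4 were higher (2.75%). Akr1c18 was 3.23-fold higher in co-exposed cells (1.69 ± 0.06, adjusted p = 9.63e-10; 1.63 on the slide with 2 arrays of each group). Aldh4a1 was 2.17-fold higher (1.12 ± 0.04, adjusted p = 2.6e-09; 1.13 within the slide). The Aldh1l2 probes were 2.18- and 2.67-fold higher (1.13 ± 0.09, adjusted p = 1.32e-06, and 1.42 ± 0.09, adjusted p = 1.47e-07; 0.99 within the slide for the brightest, whose call was lost in 7 of 28 alternative settings). For each of these genes the 3 co-exposed arrays were above the 3 KBrO3-only arrays. With slide as a block 1 of the 4 calls remained, that of Akr1c18, and with only the arrays of these 2 groups in the fit there were 0.

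**Figure D5:**
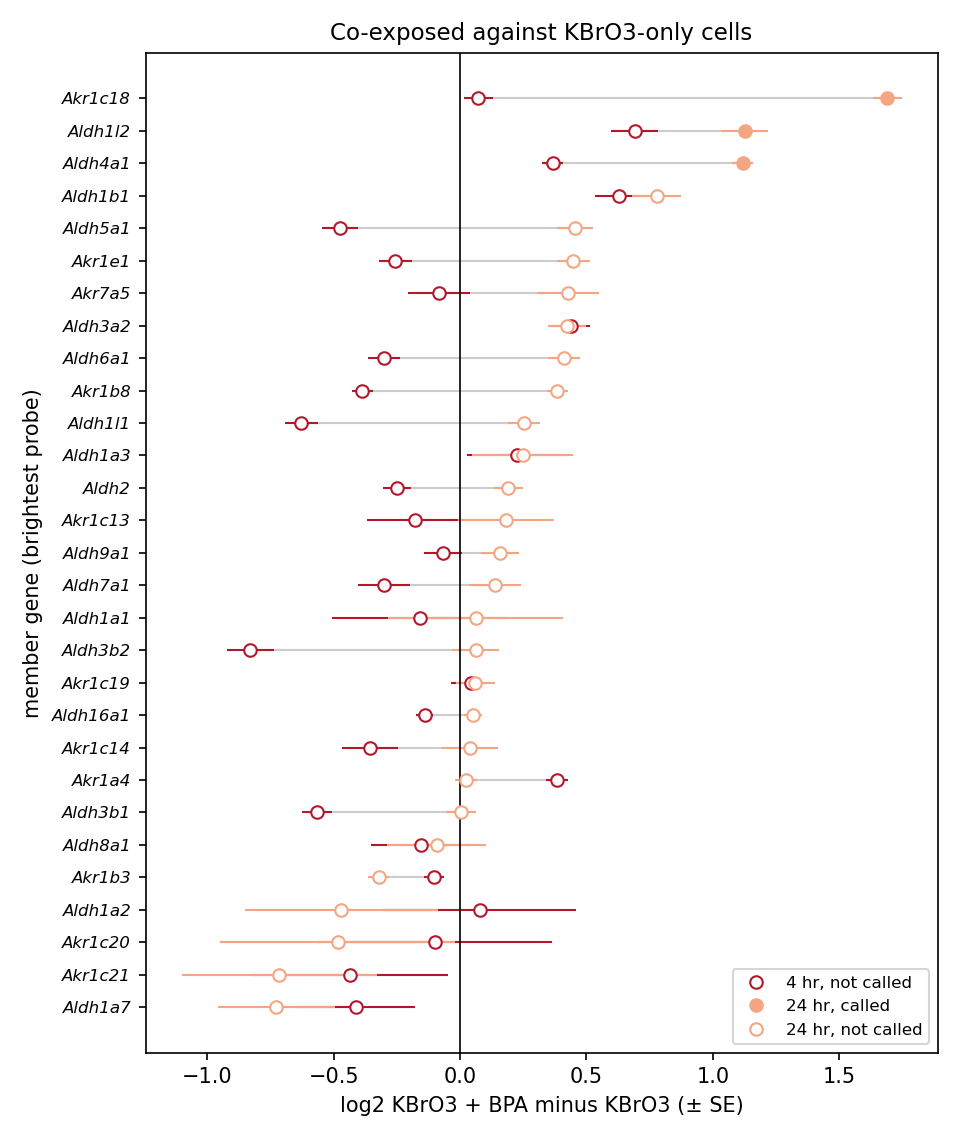
Difference between co-exposed and KBrO3-only cells (horizontal axis, log2 units ± SE) for the brightest probe of 29 member genes at 4 hr (dark red) and 24 hr (light orange), joined by a line for each gene. Filled circles mark called changes, which are Akr1c18, Aldh1l2 and Aldh4a1 at 24 hr.

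What BPA added differed between 24 and 4 hr by limma for a few members. The 4 hr groups share no slide, so BPA and slide cannot be told apart there or in this difference. The change from 4 to 24 hr in the difference between co-exposed and KBrO3-only cells was called for 4 of 35 member probes against 3.84% of all probes, each toward higher values with BPA at 24 hr (2.14%), and 11 of 35 passed the Benjamini-Hochberg threshold (27.3%). They were Akr1c18 (1.62 ± 0.08, adjusted p = 7.67e-08), Akr1b8 (0.77 ± 0.06, adjusted p = 1.69e-06), Aldh4a1 (0.75 ± 0.06, adjusted p = 2.13e-06) and the second Aldh2 probe (0.78 ± 0.07, adjusted p = 6.9e-06). Co-exposed cells read 4.07, 4.03 and 4.11 for Akr1b8 at 4 hr and 5.02, 5.05 and 4.92 at 24 hr, against 4.46, 4.47 and 4.45 and 4.57, 4.62 and 4.65 in KBrO3-only cells, so its co-exposed arrays were the lower ones at 4 hr and the higher ones at 24 hr. The replicate number as a block left 1 of these 4 calls, that of Akr1c18. With slide as a random block the calls of Akr1b8 and Aldh4a1 were lost. With normexp background correction, and with all 24 arrays in 1 fit, those of Akr1c18, Akr1b8 and Aldh4a1 were lost. Without KBrO3-only replicate 1 or 2 of the 4 hr group the count was 2, and without co-exposed replicate 3 of the 24 hr group it was 7.

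From 4 to 24 hr, 12 of 35 member probes changed in KBrO3-only cells against 26.7% of all probes, with 3 higher (12.2%) and 9 lower (14.6%). In co-exposed cells 13 changed against 30.1%, with 8 higher (14.2%) and 5 lower (15.9%). In both treatments the 4 and 24 hr groups share no slide, so time and slide cannot be told apart. With slide as a random block, the brightest probes of Akr1b3, Aldh1a7, Aldh1b1 and Aldh6a1 lost their calls in KBrO3-only cells. Those of Akr1c18, Akr1e1, Aldh1a7 and Aldh1b1 did so in co-exposed cells. At the Benjamini-Hochberg threshold 21 and 22 of 35 passed in these groups, beside 47.8% and 55.6% of all probes. The largest of these was Aldh1a3, with -5.84 ± 0.20 and -5.82 ± 0.20 by its brightest probe, a 57.3- and 56.5-fold drop. Akr1c18 fell with time in KBrO3-only cells (-0.97 ± 0.06) and rose in co-exposed cells (0.65 ± 0.06), the latter a call that 16 of 28 alternative settings did not keep. Aldh5a1 (1.31 ± 0.07), Aldh4a1 (1.19 ± 0.04), Akr1b8 (0.93 ± 0.04), Akr1e1 (0.88 ± 0.07) and the brightest Aldh1l2 probe (1.05 ± 0.09) were called higher at 24 than at 4 hr in co-exposed cells. None of these 5 was called in KBrO3-only cells by that probe. The Aldh1l2 call was lost in 17 of 28 alternative settings, and its brightest probe passed the Benjamini-Hochberg threshold as higher in KBrO3-only cells too. For the change in what BPA added, Akr1b8 and Aldh4a1 were called, Aldh5a1 and Akr1e1 passed only that threshold, and the brightest Aldh1l2 probe did not pass. In BPA-only cells 0 of 44 member probes were called by limma against 0.0377% of all probes. There 17 of 44 had an unadjusted p below 0.05 (19.9% of all probes), and 4 passed the Benjamini-Hochberg threshold (3.79% of all probes). Those 4 were both Aldh1a3 probes (-2.67 ± 0.28 for the brightest; the other had 1 of 3 arrays well above background at 24 hr) and Aldh1a7 (-2.70 ± 0.29), which were lower at 24 hr, and Akr1c18 (1.86 ± 0.34), which was higher. On scaling to the array median, the median over all probes moved by 0.46 for the co-exposed time change and by 0.32 for co-exposed cells at 24 hr against control. The count of member probes called between times in co-exposed cells then became 20, with 16 higher and 4 lower. The share of all probes called under that scaling was not computed, so these counts are not a result about the members.

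Genes that work beside the members were read from lists of other genes, each by its brightest probe. Beside the counts of called genes below, the shares of all probes called higher and lower were 14.7% and 14.1% at 4 hr and 7.44% and 9.41% at 24 hr after KBrO3, and 16.4% and 16.2%, then 9.77% and 11.1%, after co-exposure. Of 25 NRF2 targets outside both families, 20 were called higher at 4 hr after KBrO3 and 16 after co-exposure, and none lower. At 24 hr 5 were called higher and 2 lower after KBrO3, and 13 higher and 0 lower after co-exposure. The glutathione transferase Gsta1 read 2.05 to 2.09 at 4 hr after KBrO3 against -5.70 to -5.42 in controls, and Gsta2 read 0.67 to 0.73 against -6.60 to -5.07. For both, 1 of 3 control arrays was well above background, so no fold is given. Heme oxygenase Hmox1 was 74.7-fold higher at that time, the cystine carrier Slc7a11 32.8-fold and the quinone reductase Nqo1 2.07-fold. The members gave 3 higher probes of 35 in that comparison, as above. Of 27 other carbonyl-reducing or alcohol-oxidizing enzymes tested, 4 were called higher and 8 lower at 4 hr after KBrO3, and 0 higher and 9 lower at 24 hr. After co-exposure 5 were called higher and 9 lower at 4 hr, and 3 higher and 6 lower at 24 hr, when the direct comparison of both treatments had 7 called higher with BPA (2.75% of all probes) and 0 lower (3.05%). Carbonyl reductase 3 (Cbr3) was 4.68-fold higher at 4 hr (2.23 ± 0.05), while Hsd11b1, which regenerates active glucocorticoid, was 21.7-fold lower at 24 hr (-4.44 ± 0.04), with Cbr2 10.6-fold lower. Adhfe1 was also called lower at 24 hr, when its probe was at background on all 3 arrays. Xdh, xanthine dehydrogenase, was 2.39-fold lower in KBrO3-only cells at 24 hr (-1.25 ± 0.08) and 3.33-fold higher in co-exposed than KBrO3-only cells then (1.73 ± 0.08). After BPA alone at 24 hr it was 8.47-fold higher (3.08 ± 0.35, adjusted p = 0.00448, limma), which passed the Benjamini-Hochberg threshold and was not called.

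Of 21 tested genes of retinoid handling, 6 were called higher and 3 lower at 4 hr after KBrO3, and 3 higher and 7 lower at 24 hr. After co-exposure 5 were called higher and 4 lower at 4 hr, and 1 higher and 7 lower at 24 hr. The retinoic acid hydroxylases Cyp26a1 and Cyp26b1, which break down the product of the Aldh1a enzymes, were 8.03-fold (3.00 ± 0.05) and 4.34-fold (2.12 ± 0.04) higher at 4 hr after KBrO3. At 24 hr Cyp26a1 was called lower (-0.70 ± 0.05) and Cyp26b1 higher (0.68 ± 0.04). The retinol dehydrogenase Rdh13 was higher at both times (2.59 ± 0.14 and 1.62 ± 0.14). Of 28 tested partners in amino acid, folate and polyol metabolism, 10 were called higher and 6 lower at 4 hr in KBrO3-only cells and the same numbers in co-exposed cells. At 24 hr 3 were called higher and 3 lower in KBrO3-only cells, and 10 higher and 3 lower in co-exposed cells. Mthfd2, which works in the mitochondrial folate route of Aldh1l2, was 2.01-fold higher after KBrO3 and 5.01-fold higher after co-exposure at 24 hr, and 2.49-fold higher in co-exposed than KBrO3-only cells (1.32 ± 0.08, adjusted p = 7.2e-08, limma). The branched-chain aminotransferase Bcat1 was higher in all 4 groups (2.72 ± 0.09 and 1.04 ± 0.09 after KBrO3), hexokinase Hk2 was higher at 4 hr (2.17 ± 0.08), and choline dehydrogenase Chdh was called lower at 4 hr, when its probe was at background on all 3 arrays.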

How the data were processed

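RNA of 24 samples was hybridized to Agilent 1-colour mouse arrays, 3 per group. Per the file headers, the authors extracted the spot intensity with Agilent Feature Extraction 9.5.3.1 (set 1) or 12.0.0.7 (set 2), which subtracts background and detrends the signal within an array. The value table deposited with the series holds intensity on a linear scale, with medians of 59.83 to 120.53 per array. It was used as an alternative source and held exactly the same number as the scanner output at 1080432 of 1080432 values. Set 2 files give neither gene names nor a mean spot signal, so names were taken from set 1 by probe, and the median spot signal was used for normexp.

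Outlier spots were left out, spots of a probe averaged, and log2 processed signals scaled to the 75th percentile of each array. Each set was fitted with limma 3.58.1 in R 4.3.3 on all its groups, without covariates, after the study's thresholds (Bonferroni p below 0.01, 1.5-fold). limma's moderated test replaced the analysis of variance that the methods name. The fit was tested on simulated data. A gene was represented by its probe of highest mean signal over 24 arrays, and every member gene was accounted for; values of each array were given for genes called in a comparison with control or of co-exposed with KBrO3-only cells, and for Aldh1a, Aldh2, Akr1a and Akr1b genes. The members and gene lists were chosen with earlier results of these data known. Genes of the other lists were named by size of change, and 1 item is not reported here. Probe positions are those of the array design (mm7), and all 34 member genes had a RefSeq symbol. Alternatives were the scaling, background correction, filter, weights, outlier spots, samples in the fit, threshold, slide and replicate blocks and leaving out each array. The labels give only a replicate number, and the methods describe biological replicates for each condition, so the p-values measure the spread between these. Whether they came from separate experiments is not stated. Columns of the scanner files other than signals, errors, backgrounds and quality flags were not used.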

Additional observations from a re-analysis of the deposited data

Results flagged for a closer look

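These results stand out because an effect differed between times, tested directly with limma as a contrast between the 24 and 4 hr groups or as the change in what BPA added. Values are log2 differences, 24 minus 4 hr, and all 3 arrays of one time lay beyond all 3 of the other for each contrast between times. In both treatments the 4 and 24 hr groups share no slide, so time and slide cannot be told apart. The KBrO3-only and co-exposed groups at 4 hr share no slide either, so the change in what BPA added cannot be told apart from slide.

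In KBrO3-only cells, Aldh1a3 differed by -5.841, Aldh1a7 by -2.85 (at least 3.39-fold lower, since its 24 hr arrays were at background), Aldh1l1 by -2.113, Aldh3b2 by -1.167, Aldh6a1 by -1.066, Akr1c18 by -0.969 and Aldh3b1 by -0.921. Aldh1b1 differed by 1.087 (at least 2.04-fold higher, since its 4 hr arrays were at background) and Akr1b3 by 0.593. The adjusted p of limma ranged from 3.41e-11 for Aldh1l1 to 5.25e-07 for Aldh1b1. The call was lost in 16 of 27 alternative settings for Aldh1b1, whose difference was -0.042 with normexp background correction, in 11 of 28 for Aldh3b2, 8 of 27 for Aldh1a7, 6 of 28 for Akr1b3 and 0 to 4 of 28 for the other 5.

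In co-exposed cells, Aldh1a3 differed by -5.82, Aldh1a7 by -3.166 (at least 2.02-fold lower), Aldh1l1 by -1.231 and Akr1a4 by -0.684. Aldh5a1 differed by 1.307, Aldh1b1 by 1.235, Aldh4a1 by 1.19, Aldh1l2 by 1.047, Akr1b8 by 0.929, Akr1e1 by 0.879 and Akr1c18 by 0.65. The adjusted p of limma ranged from 7.83e-11 for Aldh1a3 to 4.88e-07 for Aldh1l2. The call was lost in 17 of 28 alternative settings for Aldh1l2, 16 of 28 for Akr1c18, 8 of 27 for Aldh1b1, 5 of 28 for Akr1a4 and 1 to 4 for the other 7. Over its alternative settings the Aldh1b1 difference ranged from 0.281 to 1.755.

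The difference between co-exposed and KBrO3-only cells changed from 4 to 24 hr by 1.618 for Akr1c18, 0.772 for Akr1b8 and 0.752 for Aldh4a1, with adjusted p of 7.67e-08, 1.69e-06 and 2.13e-06 (limma). These calls were lost in 2, 5 and 7 of 28 alternative settings. The fibroblast marker level also differed between 4 and 24 hr, as given above, and its part in these differences was not tested.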

How the results depend on the processing

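Among the values obtained for the 12 counts of called member probes, 273 stayed within 1.5 times and 45 did not. In the order KBrO3 4 hr, KBrO3 24 hr, KBrO3 + BPA 4 hr and KBrO3 + BPA 24 hr against control, the counts of 7, 11, 10 and 12 became 1, 6, 5 and 7 with normexp background correction and 3, 5, 4 and 4 with only the arrays compared. At the Benjamini-Hochberg threshold, the counts were 21 of 35 for KBrO3 + BPA 24 hr against control (39.4% of all probes), 5 and 4 of 44 for BPA at 4 and 24 hr (4.24% and 3.4%), 4 of 35 for KBrO3 + BPA against KBrO3 at 4 hr (20.1%), 21 and 22 of 35 and 4 of 44 between times in KBrO3-only, co-exposed and BPA-only cells (47.8%, 55.6% and 3.79%), and 11 of 35 for the change in what BPA added (27.3%). With all 24 arrays in 1 fit, they were 4 for KBrO3 4 hr, 1 and 2 for BPA at 4 and 24 hr, 1 for KBrO3 + BPA against KBrO3 at 24 hr, 4 and 3 between times in co-exposed and BPA-only cells, and 0 for the change. Normexp gave 2 for KBrO3 + BPA against KBrO3 at 24 hr, 3 between times in both KBrO3-only and co-exposed cells, and 0 for the change, where the arrays compared alone gave 0, 2, 2 and 2. Slide as a block gave 1 for KBrO3 4 hr, 1 for KBrO3 + BPA against KBrO3 at 24 hr, 7 between times in KBrO3-only cells and 1 for the change. Scaling to the median gave 20 between times in co-exposed cells and 1 for KBrO3 + BPA against KBrO3 at 4 hr, as did quantile normalization, the error-weighted fit and probes well above background on every array for the latter. The median of all probes moved by up to 0.46 with median scaling, 0.24 with quantile normalization and -0.53 with normexp. Apart from the Benjamini-Hochberg threshold, the share of all probes called was not computed for the alternatives.

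Leaving out single arrays gave 0 to 2 for KBrO3 + BPA against KBrO3 at 4 hr (2 without KBrO3 + BPA 24 hr replicate 3) and 2 to 7 for the change in what BPA added (2 without KBrO3 4 hr replicate 1 or 2, and 7 without KBrO3 + BPA 24 hr replicate 3). Between times in KBrO3-only cells it gave 8 to 13. For named genes, 14 of 59 results held under every alternative and 1 changed sign, Aldh1b1 between times in KBrO3-only cells, from 1.09 to -0.042 with normexp. The cause was not tested.

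The replicate number as a block gave 1 for the change in what BPA added. Correlations between the deviations of same-numbered arrays went both ways, from -0.212 to 0.103 in set 1 and from -0.469 to 0.708 in set 2, so the numbers were not taken to pair the samples. The dimmest signal well above background was -5.88 to -5.09 in set 1 and -8.06 to -7.13 in set 2, which limits what could be seen of dim probes.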
